A study of Mus musculus with 8 samples.

Results

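The 9 genes described here were Cdkn2b, Cdkn2a, Cdkn2c, Cdkn1a and Cdkn1b, which encode inhibitors of cyclin-dependent kinases, Ccnd1, which encodes cyclin D1, and Birc5, Mki67 and Top2a, which mark dividing cells. They were taken by name from the 22180 genes that could be named on the arrays, and each had 1 transcript cluster, the unit of probes that the array reports for a gene. Liver RNA came from male mice at 24 weeks of age, with 4 livers in the HFD PN group and 4 in the Ctrl PN group and 1 Affymetrix Mouse Gene 2.1 ST array per liver. PN stands for postnatal. Dams of HFD PN offspring ate a 60% high-fat diet (HFD) during lactation, and dams of Ctrl PN offspring ate standard chow. All offspring were bred from C57BL/6J mice, ate normal diet from weaning, and gave liver in the non-fasted state. The sources used here do not say which livers shared a litter, so the p-values below measure only the spread between these livers.

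The set was chosen by name at a time when the log2 differences between these same 2 groups were already known. The difference between HFD PN and Ctrl PN is therefore given as a description for all 9 genes. No p-value is printed for them, and counts of those past a threshold, given beside the share of all genes, are descriptions too.

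A cell that enters division is driven by cyclins, proteins that switch on cyclin-dependent kinases. D-type cyclins act early with the kinases Cdk4 and Cdk6, which phosphorylate the retinoblastoma protein and so release E2F transcription factors onto genes of DNA replication and mitosis. Inhibitors of the INK4 family (p15 from Cdkn2b, p16 from Cdkn2a, p18 from Cdkn2c) bind Cdk4 and Cdk6, while those of the CIP/KIP family (p21 from Cdkn1a, p27 from Cdkn1b) act on a wider range of cyclin and kinase pairs. Hepatocytes of the adult liver rarely divide, but they re-enter the cycle after injury or loss of tissue. INK4 inhibitors are also widely used as markers of ageing and of senescence, a lasting arrest of division.

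Promoter sequences are shown for the genes whose groups of livers did not overlap, Cdkn2b and Birc5, and for the other 2 division markers, because genes of mitosis are known to share promoter elements. The elements searched were the cell cycle genes homology region (CHR), with the letters TTTGAA or TTCGAA, and the CCAAT box, with the letters CCAAT, each on both strands. Each window holds 250 bases before and 50 after a RefSeq transcription start, 5′ to 3′ along the gene's own strand, with matched letters in capitals.
Cdkn2b (GRCm38.p6, chr4:89310983-89311282, minus strand): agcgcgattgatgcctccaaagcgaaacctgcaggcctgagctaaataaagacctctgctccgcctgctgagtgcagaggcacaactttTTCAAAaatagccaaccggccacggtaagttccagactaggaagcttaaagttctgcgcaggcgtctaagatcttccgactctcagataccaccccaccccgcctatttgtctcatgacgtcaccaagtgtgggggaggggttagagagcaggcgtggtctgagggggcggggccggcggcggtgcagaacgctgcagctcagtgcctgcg
Birc5 (GRCm38.p6, chr11:117848987-117849286, plus strand): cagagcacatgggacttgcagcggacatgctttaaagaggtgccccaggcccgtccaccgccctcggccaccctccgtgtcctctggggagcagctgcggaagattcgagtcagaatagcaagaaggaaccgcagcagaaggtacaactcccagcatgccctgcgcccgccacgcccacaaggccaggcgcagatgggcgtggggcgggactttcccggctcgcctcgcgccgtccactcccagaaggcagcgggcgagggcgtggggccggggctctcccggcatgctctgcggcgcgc
Mki67 (GRCm38.p6, chr7:135716330-135716629, minus strand): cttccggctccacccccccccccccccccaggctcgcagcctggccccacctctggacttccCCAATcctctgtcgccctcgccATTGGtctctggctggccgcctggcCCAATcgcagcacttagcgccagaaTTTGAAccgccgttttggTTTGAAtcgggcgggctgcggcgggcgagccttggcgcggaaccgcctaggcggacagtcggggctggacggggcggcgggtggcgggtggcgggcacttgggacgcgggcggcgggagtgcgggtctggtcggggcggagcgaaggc
Top2a (GRCm38.p6, chr11:99024140-99024439, minus strand): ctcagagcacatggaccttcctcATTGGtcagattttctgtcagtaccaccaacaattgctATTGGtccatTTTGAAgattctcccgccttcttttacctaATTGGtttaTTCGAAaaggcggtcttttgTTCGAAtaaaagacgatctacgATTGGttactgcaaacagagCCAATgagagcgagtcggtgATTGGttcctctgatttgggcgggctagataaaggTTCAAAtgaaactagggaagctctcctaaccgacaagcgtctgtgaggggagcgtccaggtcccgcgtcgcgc

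The Top2a window held 4 CHR matches and 6 CCAAT boxes, and the Mki67 window held 2 CHR matches and 3 CCAAT boxes. The Cdkn2b window had 1 CHR match and 0 CCAAT boxes, and the Birc5 window had neither. Among all 32851 RefSeq windows of the same length, 19.2% held at least 1 CHR match and 37.4% at least 1 CCAAT box. No letters were shared between matches of the different elements in these windows. The RefSeq table gave 11 windows for 8 of the 9 genes. Cdkn2a had 2 windows because it has separate starts for p16 and for the unrelated protein ARF, whose transcripts share later exons, so that its transcript cluster is not shown to tell them apart. The 3 CCAAT boxes of Cdkn1b and the 1 each of Cdkn2a and Cdkn2c were the remaining matches. A match of letters is a description and was not tested as a binding site.

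The arrays did not behave alike. HFD PN replicate 1 correlated with the others, across genes that are not independent, at Pearson's r of 0.945 to 0.968, and Ctrl PN replicate 3 at 0.968 to 0.979, while the highest r of each other array was between 0.988 and 0.991. Alb, which encodes serum albumin, was the brightest of the 9 measured hepatocyte markers with a mean log2 level of 12.24, and all 9 lay above the dim range defined below, as liver tissue should show. Values were log2 expression levels made by the authors with RMA, in which an increase of 1 is a doubling, and all 8 arrays were kept unless a sentence says otherwise. Fewer cells of a type and less RNA per cell cannot be told apart in whole liver.

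Most of the 9 genes were dim on these arrays. As a guide to where genes not expected in liver lie, 1105 olfactory receptor genes had a median level of 1.14 and a 95th percentile of 1.65. Cdkn1b, with a mean of 3.46 over the 8 livers, and Ccnd1, with a mean of 3.07, stood well above that range. Cdkn2c at 1.92, Cdkn1a at 1.84, Cdkn2b at 1.81 and Cdkn2a at 1.71 lay just above its upper end. Mki67 at 1.64, Birc5 at 1.42 and Top2a at 1.22 lay inside it, and 63.3% of the olfactory receptor genes were below Top2a. Probes differ in brightness, so that these values place each gene near or away from the dim range and do not rank expression between genes. Detection above the array's background was not tested for the dim genes.

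**Figure D1:**
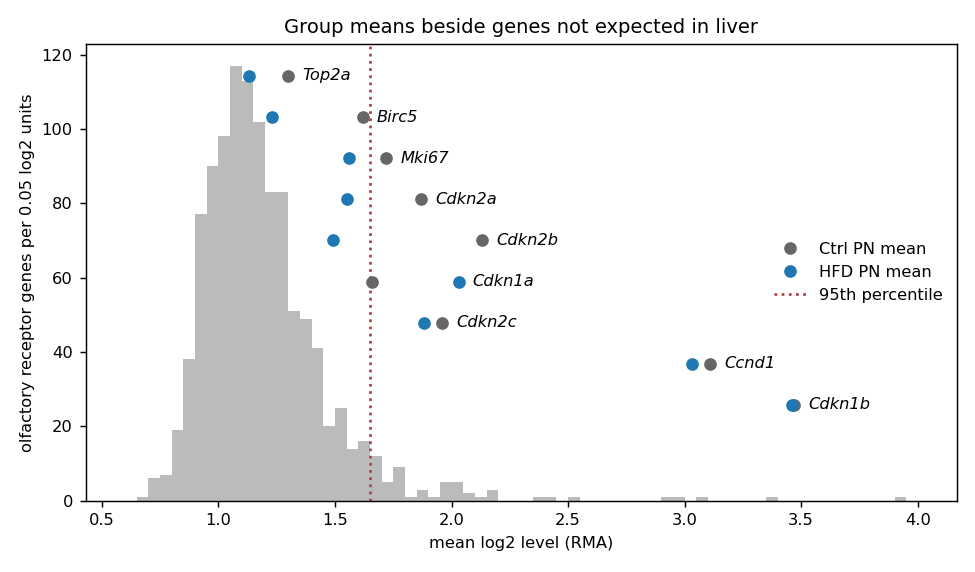
Grey bars count olfactory receptor genes by mean log2 level (x axis, RMA values), the dotted line is their 95th percentile (1.65), and points are the Ctrl PN (grey) and HFD PN (blue) means of each gene, whose height on the plot carries no value. The HFD PN means of Top2a, Birc5, Mki67, Cdkn2a and Cdkn2b lie left of the dotted line, while both means of Ccnd1 and Cdkn1b lie far to its right.

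Cdkn2b had the largest difference of the 9 genes. Its protein, p15, blocks Cdk4 and Cdk6 and is known to be induced by TGF-beta. The log2 levels (transcript cluster 17427155) were 1.84, 1.97, 2.77 and 1.94 in Ctrl PN replicates 1 to 4 and 1.54, 1.43, 1.52 and 1.47 in HFD PN replicates 1 to 4. All HFD PN livers were below all Ctrl PN livers, with a gap of 0.30 between the groups. The mean was 2.13 ± 0.43 (SD, n = 4) in Ctrl PN and 1.49 ± 0.05 (SD, n = 4) in HFD PN, a log2 difference of -0.64 (standard error 0.19). Ctrl PN replicate 3, an array that stood apart, carried the highest value, and without it the difference was -0.43. The HFD PN livers were all below 1.65, the upper end of the dim range, and the Ctrl PN livers were all above it.

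Cdkn2a lies beside Cdkn2b on chromosome 4 and encodes the INK4 inhibitor p16 and, from another reading frame, ARF, which stabilises p53. Its transcript cluster (17427147) had log2 levels of 1.66, 1.82, 2.35 and 1.65 in Ctrl PN replicates 1 to 4 and 1.84, 1.44, 1.57 and 1.34 in HFD PN replicates 1 to 4. The groups overlapped through HFD PN replicate 1, which was above 3 of the 4 Ctrl PN livers. The means were 1.87 ± 0.33 (SD, n = 4) in Ctrl PN and 1.55 ± 0.22 (SD, n = 4) in HFD PN, a difference of -0.32 (standard error 0.18). Ctrl PN replicate 3 was again the highest liver, and the difference shrank to -0.16 when it was left out. Leaving out HFD PN replicate 1 in its place gave -0.42.

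Cdkn2c, whose product p18 also binds Cdk4 and Cdk6, differed little between livers. In log2 levels, its transcript cluster (17428217) was at 1.79, 2.01, 1.93 and 2.12 in Ctrl PN replicates 1 to 4 and 1.84, 1.89, 1.83 and 1.97 in HFD PN replicates 1 to 4. The range over the 8 livers was 0.33, the smallest of the 9 genes, and the difference between groups was -0.08 (standard error 0.10). The remaining INK4 gene, Cdkn2d, which was not among the 9, was at 2.06 to 2.34 in Ctrl PN and 1.82 to 2.04 in HFD PN. These groups did not overlap, but the log2 difference of -0.18 (standard error 0.10) did not pass the threshold by limma (unadjusted p = 0.117, adjusted p = 0.99988).

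Cdkn1a was the 1 gene of the 9 with a higher mean in HFD PN. It encodes p21, an inhibitor best known as a target of p53. The log2 levels (transcript cluster 17335467) were 1.75, 1.69, 1.65 and 1.55 in Ctrl PN replicates 1 to 4 and 1.52, 1.85, 2.27 and 2.48 in HFD PN replicates 1 to 4. HFD PN replicates 2, 3 and 4 lay above every Ctrl PN liver, and HFD PN replicate 1 lay below every one. The means were 1.66 ± 0.08 (SD, n = 4) in Ctrl PN and 2.03 ± 0.43 (SD, n = 4) in HFD PN, a difference of 0.37 (standard error 0.19). Omission of HFD PN replicate 1 raised it to 0.54, and omission of HFD PN replicate 4 lowered it to 0.22. The direction was positive in all 14 alternative settings tried. For all 9 genes, the mean over a gene's transcript clusters and a block for replicate number, both among the 14, could not change the difference.

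Cdkn1b encodes p27, which holds resting cells out of the cycle and is known to be controlled largely through the stability of the protein. The transcript cluster (17463718) had log2 levels of 3.35, 3.66, 3.31 and 3.57 in Ctrl PN replicates 1 to 4 and 3.09, 3.4, 3.80 and 3.54 in HFD PN replicates 1 to 4. The lowest and the highest liver were both HFD PN. The difference of -0.02 (standard error 0.16) was negative in 7 of 14 alternative settings and positive in the other 7, and it was 0.11 without HFD PN replicate 1. The CIP/KIP gene Cdkn1c, which encodes p57, was not among the 9. It was at 1.71, 2.18, 1.74 and 1.99 in Ctrl PN replicates 1 to 4 and 1.66, 1.35, 1.55 and 1.46 in HFD PN replicates 1 to 4. Its groups did not overlap, although the lowest Ctrl PN and the highest HFD PN liver were close. The log2 difference of -0.40 (standard error 0.13) did not reach the threshold of 0.01 in the limma fit over all genes (unadjusted p = 0.0133, adjusted p = 0.99988).

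Ccnd1 encodes cyclin D1, the D-type cyclin that rises when hepatocytes are driven to divide. Its log2 levels (transcript cluster 17498502) were 3.15, 3.47, 2.90 and 2.89 in Ctrl PN replicates 1 to 4 and 2.08, 3.21, 3.61 and 3.23 in HFD PN replicates 1 to 4. HFD PN replicate 1 was the lowest liver by a wide margin. The other HFD PN livers were all above Ctrl PN replicates 1, 3 and 4, and Ctrl PN replicate 2 lay among them. The means were 3.11 ± 0.27 (SD, n = 4) in Ctrl PN and 3.03 ± 0.66 (SD, n = 4) in HFD PN, a difference of -0.07 (standard error 0.30). Omission of HFD PN replicate 1 turned it to 0.24, and omission of HFD PN replicate 3 gave -0.26. The direction was therefore not fixed by these livers, and it was negative in 10 of 14 alternative settings. The list of D-type cyclins and their kinases as a whole was low on the same array, where the median deviation of its 5 genes from their 8-liver means was -0.82. Most other lists were low there too, such as stellate cell markers at -0.42 and hepatocyte markers at -0.26. Exceptions were the mitosis list (0.01), lymphocyte markers (0.13) and neutrophil markers (0.57). The upper quartile over all genes was 2.637 on this array and 2.919 to 3.313 on the others. Its part in these values was not tested. The range of Ccnd1 over the livers, 1.52, was the widest of the 9 genes.

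Birc5 encodes survivin, which belongs to the chromosomal passenger complex of mitosis and to the inhibitor of apoptosis (IAP) family. Its log2 levels (transcript cluster 17258867) were 1.54, 1.87, 1.56 and 1.51 in Ctrl PN replicates 1 to 4 and 1.29, 1.10, 1.22 and 1.31 in HFD PN replicates 1 to 4. All HFD PN livers were below all Ctrl PN livers, with a gap of 0.20. The means were 1.62 ± 0.17 (SD, n = 4) in Ctrl PN and 1.23 ± 0.10 (SD, n = 4) in HFD PN, a difference of -0.39 (standard error 0.11). The difference ran from -0.31 without Ctrl PN replicate 2, the highest liver, to -0.43 without both arrays that stood apart. All but 1 of the 8 values lay below 1.65, in the dim range.

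Mki67 encodes Ki-67, which coats mitotic chromosomes and is present in cycling cells. In the transcript cluster of Mki67 (17497334), log2 levels were 1.62, 1.89, 1.77 and 1.61 in Ctrl PN replicates 1 to 4 and 1.46, 1.51, 1.45 and 1.82 in HFD PN replicates 1 to 4. HFD PN replicate 4 was among the Ctrl PN livers and the other HFD PN livers were below them. The difference was -0.16 (standard error 0.12), which became -0.25 when HFD PN replicate 4 was omitted and -0.10 when Ctrl PN replicate 2 was. Top2a encodes topoisomerase II alpha, which untangles DNA in dividing cells. Its log2 levels (transcript cluster 17268909) were 1.16, 1.23, 1.36 and 1.45 in Ctrl PN replicates 1 to 4 and 1.23, 1.0, 1.13 and 1.18 in HFD PN replicates 1 to 4. These groups overlapped, the difference was -0.17 (standard error 0.10), and every value was below 1.65. Across the division markers, then, the means were lower in HFD PN for all 3, and the groups were apart for Birc5 alone.

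**Figure D2:**
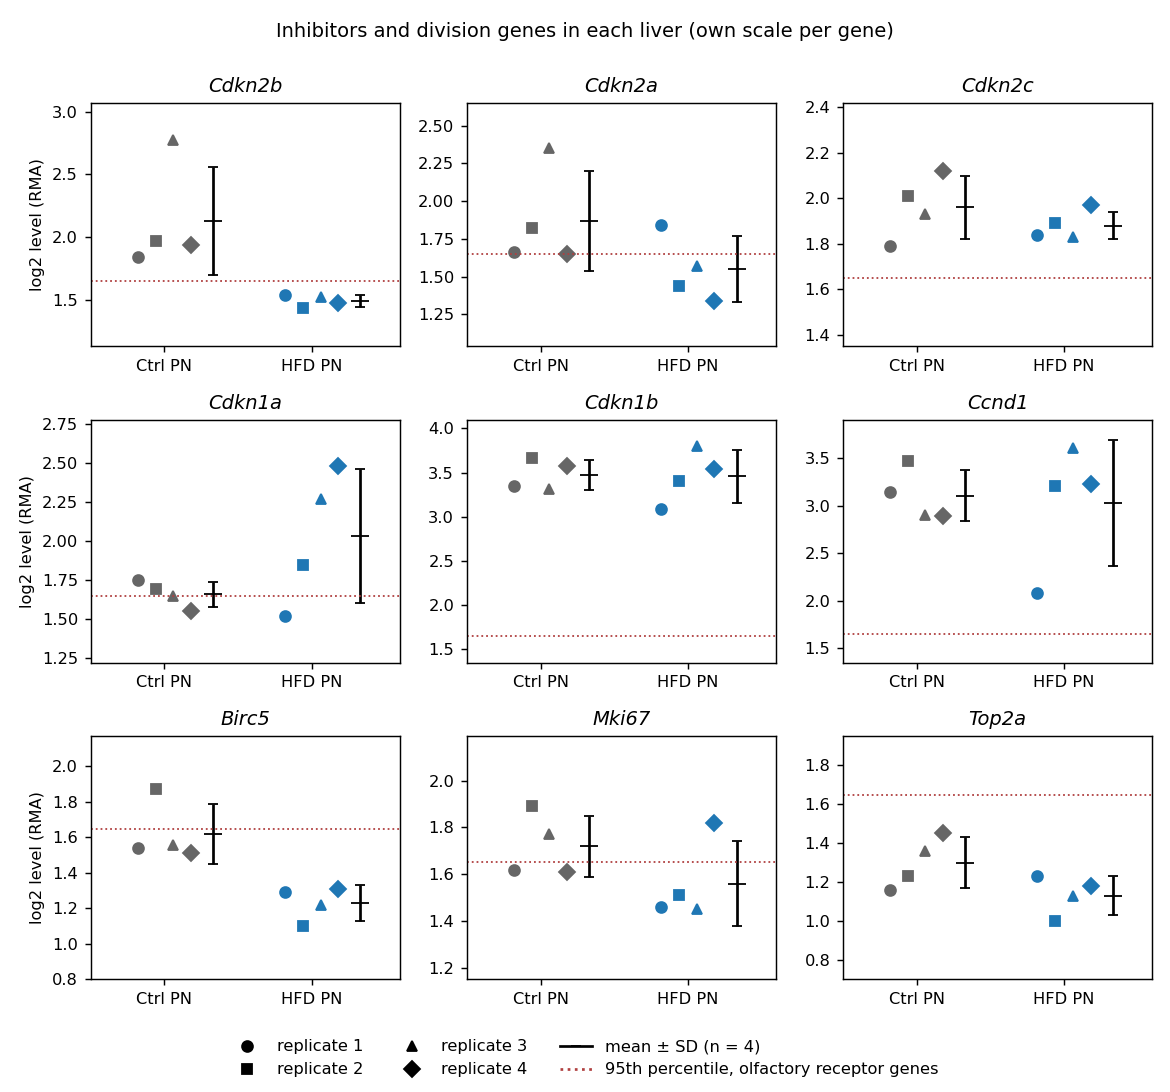
Each panel shows the log2 level (y axis, RMA values, own scale per gene) of 1 gene in the Ctrl PN (grey) and HFD PN (blue) livers, with a symbol for each replicate, the mean ± SD (n = 4) as a bar, and the 95th percentile of olfactory receptor genes (1.65) as a dotted line. Cdkn2b and Birc5 show no overlap between the groups, Cdkn1a is spread from 1.52 to 2.48 in HFD PN, and HFD PN replicate 1 is far below the other livers for Ccnd1.

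Of the 9 genes, 8 had a lower and 1 a higher mean in HFD PN, with a median log2 difference of -0.16, against -0.02 over all genes tested. The groups did not overlap for 2 of the 9, both lower in HFD PN, where 2.1% of all genes had every HFD PN liver below every Ctrl PN liver and 0.726% had every one above. An unadjusted p under 0.01 by limma, the exploratory threshold of the study, held for the same 2 genes of the 9 and for 0.555% of all genes (43 higher and 80 lower in HFD PN). An adjusted p under 0.05 was met by 0 of the 9 and by 0% of all genes by limma, where 774 genes had an unadjusted p under 0.05. Since the 9 were chosen with this contrast in view, nothing is read from these counts as a test of them. Without HFD PN replicate 1, 2.22% of all genes passed the unadjusted threshold, and the balance over all genes turned to 393 higher and 99 lower in HFD PN. Among the 9, those past it were Birc5 (lower) and Cdkn1a (higher), with Cdkn2b no longer past it at a difference of -0.66. With Ctrl PN replicate 3 left out as well, 2.24% of all genes passed it (375 higher and 121 lower), with Birc5 and Cdkn2b lower and Cdkn1a higher. After quantile normalization of the deposited values, 0 of the 9 and 0.631% of all genes passed. Also 0 of the 9 passed when Ctrl PN replicate 2 was omitted (0.496% of all genes). The same held without HFD PN replicate 2 (0.365%), 3 (0.46%) or 4 (0.225%). Cdkn2b alone passed without Ctrl PN replicate 1 (0.433%) or 3 (0.325%), and Birc5 alone without Ctrl PN replicate 4 (0.505%). Trended and robust variance counted Birc5 and Cdkn2b (0.595%), and array weights counted these and Cdkn1a (1.92%). With median centring Cdkn2b alone passed (0.451% of all genes). The methods' own test counted Birc5 alone with equal variances (0.879%) and 0 of the 9 with unequal variances (0.577%). Among genes above the median of all clusters, 0 of the 7 that remained passed, beside 0.323% of all genes tested there.

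**Figure D3:**
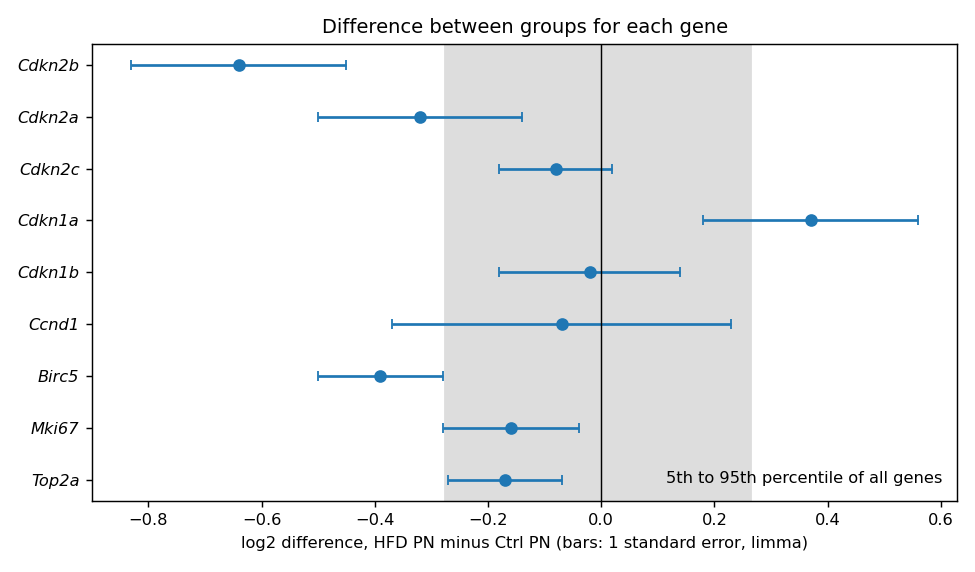
Points are log2 differences (x axis, HFD PN minus Ctrl PN) of the 9 genes (y axis) with bars of 1 standard error from limma, and the grey band runs from the 5th to the 95th percentile of the differences of all genes (-0.28 to 0.26). Cdkn2b at -0.64, Birc5 at -0.39 and Cdkn2a at -0.32 lie below the band, Cdkn1a at 0.37 lies above it, and the other 5 genes lie within it.

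How the 9 genes varied together over the 8 livers is given as a description, with no p-value, because these correlations include the difference between groups that was known when the genes were chosen. Over 36 pairs, the largest Pearson's r was 0.89 between Cdkn2b and Cdkn2a, with a Spearman's rho of 0.81. With each group's mean subtracted, r was 0.87. Without Ctrl PN replicates 2 and 3, the livers farthest from the median of Cdkn2b, r over the other 6 livers was 0.43. Omission of HFD PN replicate 1 alone gave r = 0.97 over 7 livers, so that the size of r depended on which livers were kept. Cdkn1b and Ccnd1 had r = 0.86 and rho = 0.76, and r was also 0.86 with the group means subtracted. This r was 0.50 without HFD PN replicates 1 and 3, the livers farthest from the median of Cdkn1b. Birc5 and Mki67 had r = 0.72, rho = 0.79 and r = 0.64 with the group means subtracted, and r was 0.46 without Ctrl PN replicate 2 and HFD PN replicate 2. The highest rho, 0.88, was between Cdkn2b and Birc5, where r was 0.62 as deposited and -0.11 with the group means subtracted. With 4 livers in a group, no relation was computed within a group.

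**Figure D4:**
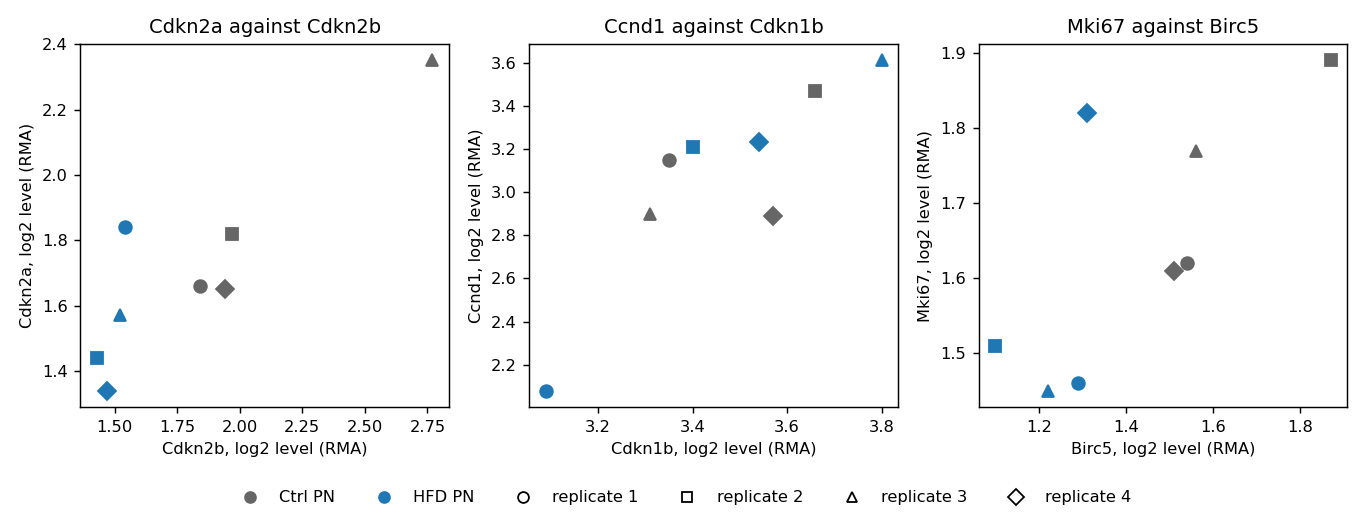
Each panel plots the log2 level (RMA values) of 1 gene against another over the 8 livers, where Ctrl PN is grey, HFD PN is blue and each replicate has its own symbol. Ctrl PN replicate 3 sets the upper end of Cdkn2a against Cdkn2b (r = 0.89), HFD PN replicate 1 sets the lower end of Ccnd1 against Cdkn1b (r = 0.86), and Mki67 against Birc5 had r = 0.72.

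Other genes of the cell cycle were taken from 13 lists by function, members of the 9 left out, which gave 161 measured genes. By limma, 0 of the 161 met the threshold of 0.01 on unadjusted p, beside 0.555% of all genes, and 0 met that of 0.05 on adjusted p. Of the 161, 2 had an unadjusted p under 0.05, Cdkn1c and E2f2, both lower in HFD PN, beside 774 of the 22180 genes. The methods' own test, run with equal and with unequal variances, gave 0 at 0.01. Groups did not overlap for 5 of the 161, with Rrm2 higher in HFD PN and Cdkn1c, Cdkn2d, Rbbp4 and Perp lower. Over all genes, 0.726% had every HFD PN liver above every Ctrl PN liver and 2.1% had every one below. The median difference was -0.01 over the 161 genes and -0.02 over all genes. E2f2, an E2F factor that drives S phase genes, was at 1.49 to 1.97 in Ctrl PN and 1.13 to 1.53 in HFD PN, with a difference of -0.33 (standard error 0.14; unadjusted p = 0.0361, adjusted p = 0.99988). The RB and E2F list had 6 negative and 7 positive differences among 13 genes. E2f1 was at 1.42 in Ctrl PN and 1.48 in HFD PN on average.

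Among the 4 other D-type cyclins and kinases, differences ran from -0.08 to 0.08. Cdk4, the kinase that the INK4 inhibitors bind, was at 4.69 ± 0.14 (SD, n = 4) in Ctrl PN and 4.70 ± 0.18 (SD, n = 4) in HFD PN. Of the 14 measured later cyclins, kinases and phosphatases, 7 were negative and 7 positive, and Ccne1, the cyclin E1 gene, had a difference of -0.28 (unadjusted p = 0.0621). Of 28 DNA replication genes, 17 were negative and 11 positive, with a median of -0.01. Rrm2, a subunit of ribonucleotide reductase, was the 1 of these with groups apart, at 1.37 to 1.48 in Ctrl PN and 1.5 to 1.79 in HFD PN (difference 0.17, unadjusted p = 0.104). Mcm5, part of the replicative helicase, had a difference of 0.24 (unadjusted p = 0.0644).

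The 34 mitosis and cytokinesis genes other than Birc5, Mki67 and Top2a had a median difference of -0.03, with 23 negative and 11 positive and a range of -0.22 to 0.19. None of these 34 had groups that did not overlap, and 4 of the 34 had a mean above 1.65. Cdc20, an activator of the anaphase-promoting complex, had a difference of -0.17 (unadjusted p = 0.119) and Cdca3, a gene of mitotic entry, of -0.17 (unadjusted p = 0.106). The list of the IAP family, to which Birc5 belongs by its protein domain, also held the IAP antagonist Diablo. Its 9 other measured genes had 8 positive and 1 negative difference, with a median of 0.16. Among the regulators of the DREAM complex, which represses cell cycle genes in resting cells, Rbbp4 had groups apart, at 6.51 to 7.09 in Ctrl PN and 6.42 to 6.49 in HFD PN (difference -0.27, unadjusted p = 0.0689).

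The p53 target list, to which Cdkn1a belongs, had 12 positive and 5 negative differences among its other 17 measured genes and a median of 0.16, and 0 of these passed an unadjusted p under 0.01 or 0.05 by limma. Trp53inp1, a stress-induced p53 partner, had a difference of 0.39 (standard error 0.20; unadjusted p = 0.0801), and Ccng1, cyclin G1, of 0.31 (standard error 0.16; unadjusted p = 0.088). HFD PN replicates 1 and 4 were the highest livers for both. Mdm2, which targets p53 for degradation, instead shared the pattern of Cdkn1a, as was seen only after its values were examined. It was at 3.71 to 4.04 in Ctrl PN and at 3.34, 4.52, 4.34 and 4.53 in HFD PN replicates 1 to 4. Its difference was 0.33 with all livers (unadjusted p = 0.228) and 0.61 without HFD PN replicate 1 (unadjusted p = 0.00043). Without that array 4 of the 161 genes passed an unadjusted p under 0.01, beside 2.22% of all genes, none at an adjusted p under 0.05. Mdm2, Dyrk1a at 0.74 and Rb1 at 0.33 were higher and Cdkn1c at -0.46 was lower.

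Known regulators of the INK4 genes did not pass the test either. Polycomb proteins silence the Cdkn2a and Cdkn2b locus in many cell types, and their 15 measured genes had 9 negative and 6 positive differences with a median of -0.01. Ring1 had the smallest p, with a difference of -0.30 (unadjusted p = 0.0526). The 15 measured genes of TGF-beta signalling had a median of -0.05. Its lowest member was Myc, a repressor of Cdkn2b, at -0.74 (standard error 0.55; unadjusted p = 0.208), with 4.98 in Ctrl PN replicate 2 against 2.45 to 2.88 in the rest of its group. Mtap, a neighbour of Cdkn2a and Cdkn2b and an enzyme of methionine salvage, had a positive difference of 0.31 (unadjusted p = 0.137), and Dmrta1, another neighbour, one of -0.08.

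**Figure D5:**
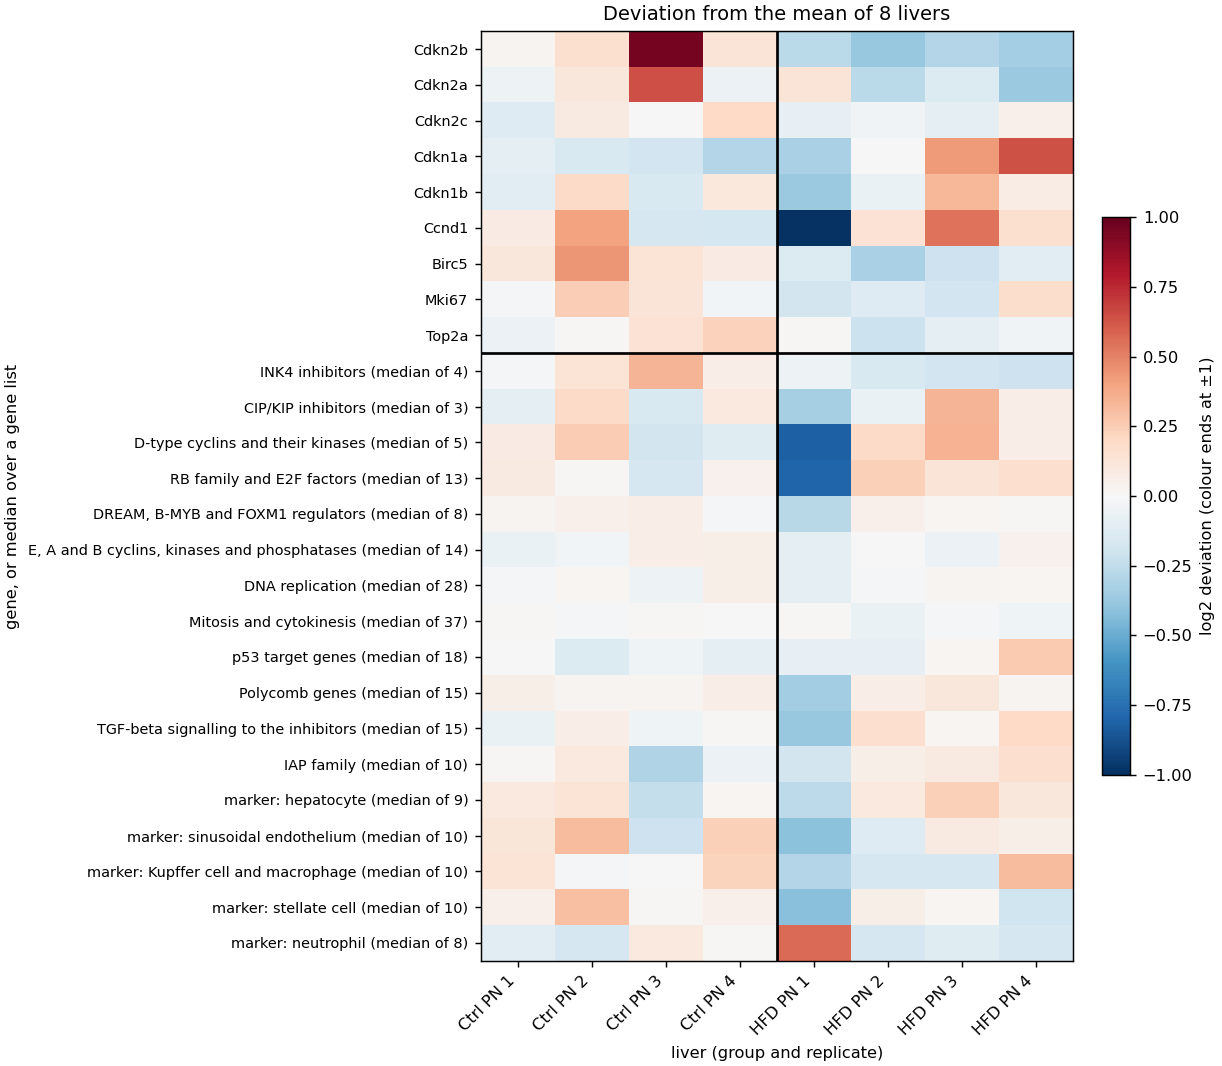
Colour gives the log2 deviation of each liver (columns) from the mean of the 8 livers, for the 9 genes (upper rows) and for the median over gene lists, members included (lower rows). Ctrl PN replicate 3 is highest for Cdkn2b and Cdkn2a. HFD PN replicate 1 is low for Ccnd1 and for most lists, among them those of D-type cyclins (-0.82) and of RB and E2F factors (-0.80). The mitosis list stays between -0.07 and 0.01 in all livers.

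Markers of endothelial cells, stellate cells and macrophages mostly had negative differences too, and their part in the differences above was not tested. Over all genes, 12389 of 22180 differences were negative. The mean log2 level of the 10 sinusoidal endothelial markers was 3.93 to 4.44 in Ctrl PN and 3.72 to 4.24 in HFD PN, and 8 of 10 had negative differences. For the 10 stellate cell markers it was 4.0 to 4.38 in Ctrl PN and 3.56 to 4.06 in HFD PN (8 of 10 negative, 1 past an unadjusted p under 0.01), and for the 10 macrophage markers 4.37 to 4.55 and 3.99 to 4.74 (9 of 10 negative). By list median, HFD PN replicate 1 was the lowest liver for endothelial (-0.41), stellate cell (-0.42) and macrophage (-0.29) markers. Endothelial markers deviated by -0.13, 0.09 and 0.06 in HFD PN replicates 2 to 4. Stellate cell markers deviated there by 0.06, 0.02 and -0.2, and macrophage markers by -0.17, -0.17 and 0.32. The 8 neutrophil markers were at 1.32 to 1.59 in Ctrl PN and 1.35 to 2.23 in HFD PN, with HFD PN replicate 1 the highest liver by list median. For the 6 measured cholangiocyte markers the range was 1.74 to 1.83 in Ctrl PN and 1.68 to 1.90 in HFD PN, and for 10 lymphocyte markers 1.80 to 1.84 and 1.69 to 1.89. Only 2 of 8 erythroid markers were measured, at 1.82 to 1.98 and 1.71 to 1.88.

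The genes most like Cdkn2b over the 8 livers, among 11549 genes above the median of all transcript clusters (predicted models, receptor families of smell, immune receptor segments and small RNAs left out), were BC037032 (r = 0.97), Pdlim3 (r = 0.969), Dmrta2 (r = 0.968), Lag3 (r = 0.958) and Dlgap3 (r = 0.957). Each of these 5 had its highest value in Ctrl PN replicate 3, the array that stood apart, and groups that did not overlap. Pdlim3, which encodes a muscle actin-associated protein, was at 2.86 in that liver and at 2.22 to 2.26 in the other Ctrl PN livers. Their mean levels were between 1.54 and 2.23. The genes most like the mean of Mki67, Top2a and Birc5 were Rhbdf1 (r = 0.963), Grb10 (r = 0.945), Mxra7 (r = 0.941), Hhipl1 (r = 0.929) and Ercc1 (r = 0.918), at mean levels of 1.78 to 2.28. None of these 5 was on the lists of the cell cycle, and Mxra7 alone among them had groups that did not overlap, lower in HFD PN. These correlations were picked as the highest of many and are descriptions over 8 livers.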

How the data were processed

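Liver RNA of 8 male offspring (4 HFD PN, 4 Ctrl PN) was measured on 1 array each. The authors deposited log2 values, obtained by RMA in the oligo package under R 3.4.3. RMA corrects the background, equalises probe signals between arrays and summarises each transcript cluster. The values still differed in distribution between arrays, and the probe files were not used here. The sources used here name no genome build for the probes.

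Of 41345 clusters, 23521 named 1 gene, 1820 named several and 16004 were not named here. Symbols were updated by gene identifier with RefSeq (23328 matched). Where several clusters named a gene (1082 genes), the one with the highest mean was kept. For all 22180 genes, limma 3.58.1 (R 4.3.3) was run with lmFit and eBayes and no covariate, with Benjamini-Hochberg adjustment. Differences are HFD PN minus Ctrl PN. Correlations between members (Python 3.11.15) are descriptions, since they include the known group difference, and their exact permutation p is used only for a count in the closing section. Promoters were RefSeq windows of GRCm38.p6. The procedure was tested on simulated data. Levels lay between 0.216 and 12.83, and arrays have no read depth, so that their number limits the precision.

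The members and the gene lists were chosen with earlier results of these data known. Genes named are the 9 members, up to 3 genes of each list with the smallest p, and the 5 most like Cdkn2b or the division markers in pattern. Perp, Myc, Mdm2, Dyrk1a and Rb1 were named after their values were seen. Alternatives covered normalization (median centring, quantiles) and the clusters used (mean per gene, bright genes only, all). They also covered the test (trended and robust variance, array weights, a block for replicate number, t-tests with equal and unequal variances). Last came omission of each liver or of both arrays that stood apart. Those for the correlations were added after seeing the data.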

Additional observations from a re-analysis of the deposited data

Results flagged for a closer look

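Groups of 4 livers were searched for 1 liver far from the others, by the gap to the nearest liver over the group's range, for the named genes (118 groups). Chance gives about 1 in 20 such groups for genes chosen without regard to these values, and 12 were found. Of these, Myc, Mdm2 and Rb1 were named after their values were seen. Pdlim3, Dlgap3 and Rhbdf1 were picked for likeness in pattern. The rate of 1 in 20 therefore does not hold for this set, and no excess is read from the count. Among the 9 genes described, Cdkn2b was at 2.77 in Ctrl PN replicate 3 and at 1.84 to 1.97 in the rest of its group. Birc5 was at 1.87 in Ctrl PN replicate 2 against 1.51 to 1.56. Mki67 was at 1.82 in HFD PN replicate 4 against 1.45 to 1.51 in the other HFD PN livers.

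In Ctrl PN replicate 3, E2f2 was at 1.97 (others 1.49 to 1.57), Pdlim3 at 2.86 (others 2.22 to 2.26) and Dlgap3 at 2.29 (others 1.57 to 1.69). Pdlim3 and Dlgap3 had been picked for their likeness to Cdkn2b, whose highest liver is the same. In HFD PN replicate 1, Mtap was at 3.77 (others 4.36 to 4.48), Mdm2 at 3.34 (others 4.34 to 4.53) and Rb1 at 2.88 (others 4.04 to 4.21). In Ctrl PN replicate 2, Cdkn2d was at 2.34 (others 2.06 to 2.1) and Myc at 4.98 (others 2.45 to 2.88). Rhbdf1 was at 1.86 in HFD PN replicate 4 (others 1.72 to 1.73).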

How the results depend on the processing

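Cdkn2b, Cdkn2a, Cdkn2c, Birc5, Mki67 and Top2a stayed lower and Cdkn1a higher in HFD PN in all 14 alternative settings, while Cdkn1b and Ccnd1 changed sign. Of the 14, the mean per gene and the replicate block could not change any of these differences. For Cdkn2b and Birc5, whose groups do not overlap, omission of a liver cannot turn the sign. No member's difference moved by more than the spread between livers. The count of genes at an unadjusted p under 0.01 was 123 as deposited (43 higher, 80 lower). It was 41 among genes above the median of all clusters, where fewer genes were tested, and 426 with array weights. The t-test with equal variances gave 195, all clusters gave 276, and omission of both arrays that stood apart gave 496. It ran from 50 without HFD PN replicate 4 to 492 without HFD PN replicate 1, with 72 when Ctrl PN replicate 3 and 81 when HFD PN replicate 2 was omitted. Median centring gave 52 higher and 48 lower genes. Trended variance gave 21 higher and 111 lower, and array weights 241 and 185. With the replicate number as a block the count was 73, which was 0.329% of all genes, with 0 of the 9 members. Same-numbered livers deviated together at r of -0.303, 0.291, -0.407 and 0.161, which differ in sign. With 4 livers in a group, these values cannot show whether same-numbered livers share more than a number. The count at an adjusted p under 0.05 was 0 except for 1 in the t-test with equal variances. Among the 161 other cell cycle genes the count was 0 as deposited, 1 with trended and robust variance (Cdkn1c) and 2 with array weights. It was 4 without both arrays, and from 0 to 4 with each liver left out. Of all genes, 0.595% passed with trended and robust variance, 1.92% with array weights and 2.24% without both arrays. With each liver left out the share of all genes ran from 0.225% to 2.22%. Pairs of members past an adjusted p under 0.05 by exact permutation, a count that includes the known group difference, numbered 0 as deposited and from 0 to 1 with each liver left out. The causes of these moves were not tested, and dim levels limit most of the genes described.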

Other observations

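A pair of transcript clusters named both Top2a and Taf1d, a subunit of the factor that starts ribosomal RNA transcription, and were left out because they name 2 genes. Cluster 17274247 was at 3.81, 3.25, 4.73 and 4.42 in Ctrl PN replicates 1 to 4 and at 4.81, 4.28, 2.85 and 3.67 in HFD PN replicates 1 to 4. Cluster 17291353 was at 4.77, 4.29, 5.75 and 5.28 in Ctrl PN and at 6.12, 5.21, 4.02 and 4.68 in HFD PN. Both were brightest in HFD PN replicate 1 and dimmest in HFD PN replicate 3, unlike the cluster that names Top2a alone, which was at 1.0 to 1.45.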
